A study of Mus musculus with 8 samples.

Results

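The genes described here are 9 members of the JAK-STAT pathway, 6 signal transducers (*Stat2*, *Stat3*, *Stat4*, *Stat5a*, *Stat5b* and *Stat6*) and 3 inhibitors (*Socs1*, *Socs3* and *Cish*). They were taken by symbol from a table of 55401 genes, in which each symbol had 1 row. All 9 were among the 15202 genes that reached 0.5 counts per 1000000 counts of the library (CPM) in at least 1 library and were tested. RNA was sequenced from hepatic macrophages, captured with anti-F4/80 antibodies on magnetic columns and cultured on collagen-coated plates. Normal livers came from wild-type C57BL/6J mice on a standard diet. Steatotic livers came from mice on the same background that lack the melanocortin 4 receptor (MC4R-KO) and ate a Western diet for 6 to 10 wk. Cells of each origin received vehicle (Veh) or 500 µg/ml cholesterol crystals (CC) for 24 h, with 2 libraries in each of the 4 groups. Genotype and diet changed together, so their parts in any difference between the livers cannot be told apart.

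Cytokine receptors carry JAK kinases, which phosphorylate STAT proteins when a ligand binds. The STAT proteins then pair, enter the nucleus and switch on genes. SOCS proteins, among them CIS, the product of *Cish*, are switched on by the same signals and in turn block receptors and JAK kinases. In liver macrophages this circuit carries the signals of interferons, IL-6, IL-10, IL-4, IL-13 and GM-CSF. Phosphorylation is the active step of the circuit, and RNA levels do not measure it.

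Total counts were 58668655 to 74529462 per library. The targeted gene, *Mc4r*, read 0 in all 4 libraries labelled wild type, whereas the 4 labelled knockout read 22 to 72 counts. Such reads would not be seen from an allele without RNA, and whether this allele makes RNA was not tested, so "normal" and "steatotic" are used throughout as labels, and every direction between the livers rests on them. The summed level of 10 macrophage markers was 16231 to 16695 CPM in normal Veh, 12340 to 12564 CPM in steatotic Veh, 12757 to 12919 CPM in normal CC and 10175 to 11060 CPM in steatotic CC. Yet at Veh 6 of the 10 were higher with the label steatotic and 3 lower, against 16.4% and 14.3% of all genes tested. With CC in both, 6 were again higher and 3 lower, against 15.9% and 12.9%. *Lyz2*, the largest part of the sum, stood at 8228 and 7908 CPM in normal Veh and at 3429 and 3591 CPM in steatotic Veh. Markers of 8 hepatocyte genes summed to 47.9 to 57.8 CPM with the label normal and 1.67 to 2.47 CPM with the label steatotic. Sinusoidal endothelial markers summed to 144 to 155 CPM in normal Veh, 173 to 176 in normal CC, 246 to 255 in steatotic Veh and 225 to 236 in steatotic CC. At Veh 4 of the 6 tested were higher with the label steatotic and 1 lower, against 16.4% and 14.3% of all genes tested. Dendritic cell markers summed to 3.61 to 4.24, 4.85 to 5.54, 9.38 to 9.65 and 7.36 to 8.71 CPM in the same order, with 2 of 5 higher and 1 lower at Veh, against the same shares. Of 6 neutrophil markers, *Ly6g* had 0 counts in every library and *S100a9*, *Retnlg* and *Cxcr2* had 0 to 21. The 6 summed to 56.3 to 59.2 CPM in normal Veh, 89.0 to 90.7 in normal CC, 99.6 to 102 in steatotic Veh and 259 to 263 in steatotic CC. The 2 that were tested moved apart at Veh, 1 higher and 1 lower with the label steatotic. *Mmp8* stood at 50.1 and 46.4 CPM in normal Veh and 94.1 and 98.0 in steatotic Veh, and *S100a8* at 9.08 and 9.94 and then 5.44 and 4.29. Both genes were higher with CC with each label and in the difference between the CC responses. Of 6 stellate cell markers, 5 stood at 0 to 0.302 CPM in every library, and *Dcn* alone stood higher, at 2.07 to 2.14 CPM in normal Veh, 5.69 to 7.002 in normal CC, 17.4 to 20.8 in steatotic Veh and 108 to 135 in steatotic CC. The part of endothelial, dendritic and other cells in the results below was not tested. The labels do not say whether the 2 libraries of a group came from separate animals or cultures, so p-values measure only the spread between these libraries, which may be technical. In bulk samples, fewer cells of a type and less RNA per cell cannot be told apart.

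The promoters of the 3 inhibitors are shown because STAT proteins bind a short palindrome, and inhibitor genes are known targets of the STAT proteins they restrain. Each sequence runs 5′ to 3′ on the strand of the gene, from 250 bases before to 50 bases after the start, as given by RefSeq on GRCm38.p6, and capitals mark TTCNNNGAA. *Cish* lies at chr9:107296409-107296708 (+), *Socs3* at chr11:117969317-117969616 (-) and *Socs1* at chr16:10785487-10785786 (-).
Cish: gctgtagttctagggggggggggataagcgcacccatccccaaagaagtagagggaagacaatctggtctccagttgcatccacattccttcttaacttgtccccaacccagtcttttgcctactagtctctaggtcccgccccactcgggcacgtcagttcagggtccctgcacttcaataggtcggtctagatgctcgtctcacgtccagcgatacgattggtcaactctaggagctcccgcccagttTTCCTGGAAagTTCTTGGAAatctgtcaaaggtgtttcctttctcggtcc
Socs3: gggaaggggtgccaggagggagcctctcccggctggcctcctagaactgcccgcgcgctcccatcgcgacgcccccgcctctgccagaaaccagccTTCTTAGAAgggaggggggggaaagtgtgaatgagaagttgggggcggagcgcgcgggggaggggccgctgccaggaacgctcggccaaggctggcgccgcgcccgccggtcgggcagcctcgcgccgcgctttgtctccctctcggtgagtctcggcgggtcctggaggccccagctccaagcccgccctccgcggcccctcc
Socs1: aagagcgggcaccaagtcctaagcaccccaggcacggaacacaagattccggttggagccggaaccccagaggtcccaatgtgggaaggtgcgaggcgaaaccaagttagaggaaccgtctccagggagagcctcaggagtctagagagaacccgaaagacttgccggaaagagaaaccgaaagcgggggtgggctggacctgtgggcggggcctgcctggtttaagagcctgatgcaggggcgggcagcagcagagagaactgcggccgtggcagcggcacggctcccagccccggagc
The *Cish* window held 2 matches, TTCCTGGAA with its first base at position 1 and TTCTTGGAA with its first base at position 12, counted from 1 at the start of the gene. The *Socs3* window held 1 match, TTCTTAGAA, with its first base 154 bases before the start (position -154). No match was in the *Socs1* window. Of 32851 promoter windows of 300 bases, 8.30% held at least 1 match and 0.457% held at least 2. A second spacing, TTCNNNNGAA, was in 6.95% of windows and, among the 9 genes, only in that of *Stat2*. Both patterns read the same on both strands and do not overlap in these windows. The windows of the other STAT genes held neither pattern, and a match is a description of letters, not evidence of binding.

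The 9 genes covered a wide range of levels. Per kilobase of exon, *Stat6* stood highest in macrophages labelled normal with Veh, at a mean of 86.7 ± 0.220 CPM per kb (SD, n = 2, as for all means below). *Stat2* followed at 72.6 ± 1.13, *Socs3* at 34.1 ± 1.54 and *Stat3* at 22.5 ± 0.556 CPM per kb. *Stat5b* stood at 9.14 ± 0.145, *Stat5a* at 2.23 ± 0.000997 and *Socs1* at 1.91 ± 0.241 CPM per kb. *Cish* and *Stat4* were near the limit of what these libraries resolve, at 0.0816 ± 0.0156 and 0.0403 ± 0.0312 CPM per kb. In macrophages labelled steatotic with CC, *Socs3* reached 80.4 ± 2.06 CPM per kb, within the spread of *Stat6* at 79.5 ± 1.64 and below *Stat2* at 90.2 ± 0.718. *Socs1*, at 3.69 ± 0.216 CPM per kb, there stood above *Stat5a* at 2.63 ± 0.120. In every library *Stat6*, *Stat2* and *Socs3* were the 3 highest of the 9 genes on this scale.

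**Figure D1:**
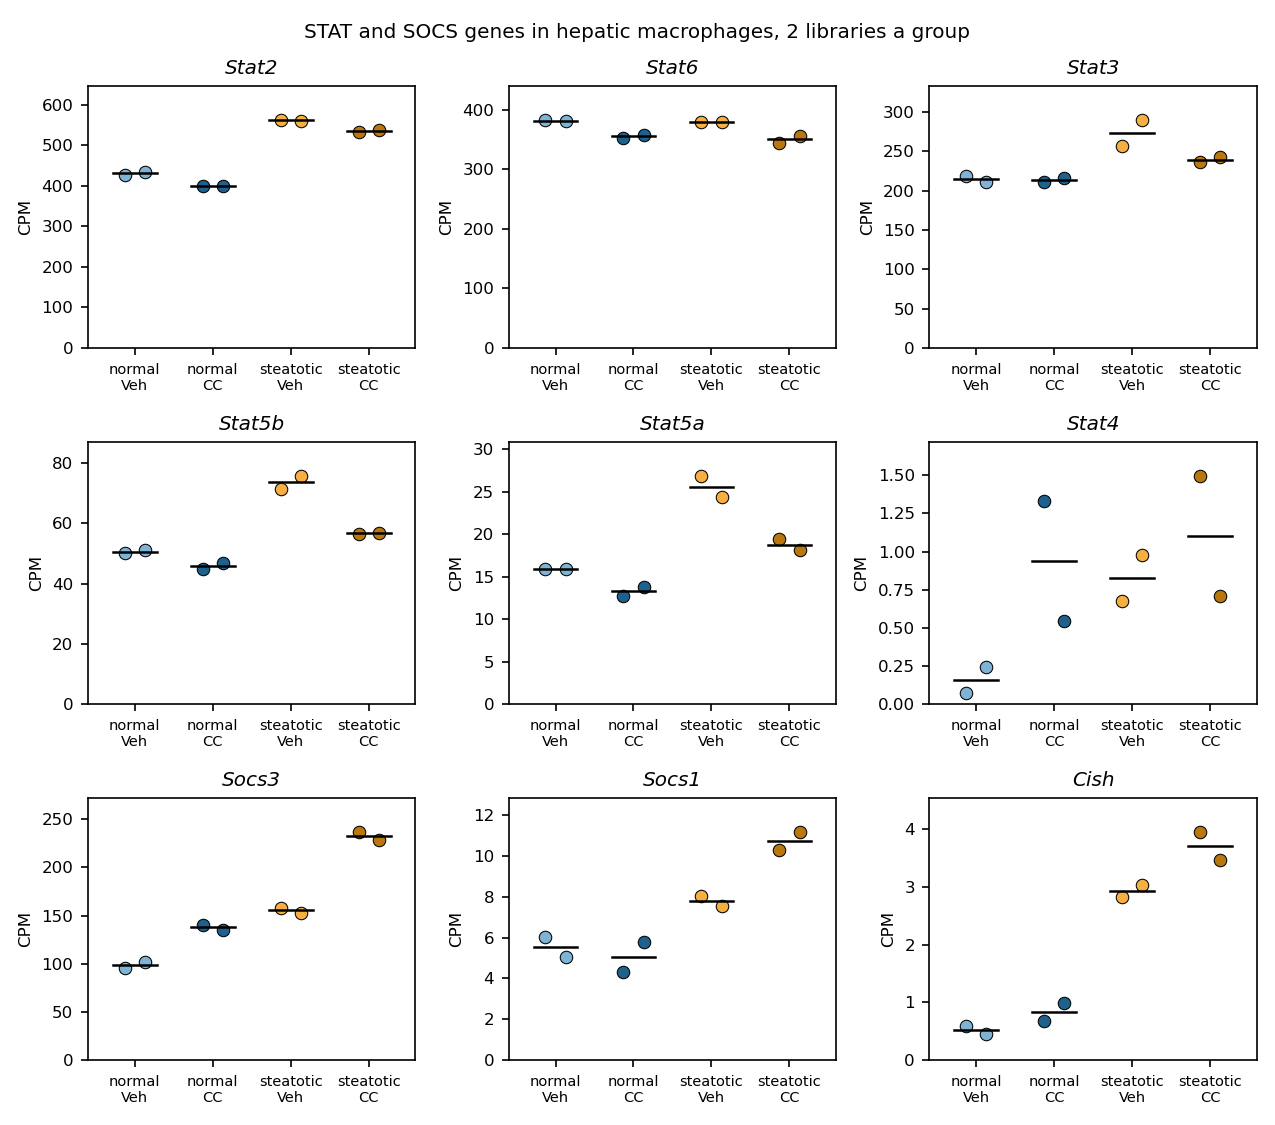
Levels of the 9 genes in CPM (vertical axis, linear from 0, scaled separately for each gene) in the 4 groups. Points are single libraries, replicate 1 on the left, and lines are group means. *Socs3* and *Cish* climb from left to right, from 95.4 to 237 CPM and from 0.453 to 3.95 CPM, while *Stat6* stays between 345 and 382 CPM.

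With Veh, 8 of the 9 genes were higher in the steatotic than in the normal group, and 0 were lower. Across all genes tested, 16.4% were called higher and 14.3% lower in this comparison. The median log2 fold change was 0.59 over the 9 genes and -0.01 over all genes tested. Calls are those of edgeR's quasi-likelihood test on TMM-scaled counts at a Benjamini-Hochberg adjusted p below 0.05 over all genes tested. The exception was *Stat6*. With CC in both, 7 of the 9 were higher and 0 lower, against 15.9% and 12.9% of all genes tested, with a median of 0.44 over the 9 genes and 0.00264 over all. The shares over all genes in this comparison were smaller when any 1 library was left out. Each comparison between the livers shares its libraries with the CC comparisons described further on.

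*Stat2* works with IRF9 in the complex that carries type I interferon signals. Its level was 426 and 435 CPM in normal Veh, and 401 and 399 CPM with CC. In those labelled steatotic it was 562 and 560.4 CPM with Veh, and 531 and 537 CPM with CC. The groups did not overlap, and the order was normal CC, normal Veh, steatotic CC and steatotic Veh. *Stat2* was 1.35-fold higher with the label steatotic at Veh (log2 0.43, SE 0.0312, edgeR adjusted p = 4.50e-05) and 1.36-fold higher at CC (log2 0.44, SE 0.0312, adjusted p = 4.30e-05). CC itself gave log2 fold changes of -0.07 (adjusted p = 0.220) and -0.05 (adjusted p = 0.286) with the labels normal and steatotic, neither past the threshold.

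*Stat3* carries the signals of IL-6 and IL-10. Its level was 218 and 211 CPM with the label normal and Veh, 211 and 217 CPM with CC, 257 and 289.6 CPM with the label steatotic and Veh, and 236 and 243 CPM with CC. The 2 normal groups overlapped, and both steatotic groups lay above them. *Stat3* was 1.31-fold higher with the label steatotic at Veh (log2 0.39, SE 0.0580, edgeR adjusted p = 0.00170). At CC the difference was 1.14-fold (log2 0.19, SE 0.0580, adjusted p = 0.0440), and its adjusted p was 0.0520 by DESeq2. That call was lost when any 1 of 6 libraries was left out, either of normal Veh, normal CC or steatotic CC, with adjusted p from 0.0582 to 0.176. The 2 libraries of steatotic Veh were the least alike, with an SD of 23.1 CPM. *Stat3* and *Stat5a* overlap at their ends on opposite strands. The kit kept the strand, but whether counting used it is not given in the sources used here.

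*Stat5a* and *Stat5b* are close paralogs that transmit GM-CSF, growth hormone and IL-2 family signals. *Stat5a* stood at 15.9 and 15.9 CPM with the label normal and Veh, 12.7 and 13.8 CPM with CC, 26.8 and 24.3 CPM with the label steatotic and Veh, and 19.4 and 18.2 CPM with CC. *Stat5b* stood at 50.1 and 51.2, then 44.9 and 46.8, then 71.6 and 75.7, and last 56.6 and 56.8 CPM in the same order of groups. For both genes no groups overlapped, and the order was normal CC, normal Veh, steatotic CC and steatotic Veh, as for *Stat2*. *Stat5a* was 1.66-fold higher with the label steatotic at Veh (log2 0.73, SE 0.0866, edgeR adjusted p = 0.000568) and 1.44-fold at CC (log2 0.53, SE 0.0870, adjusted p = 0.00333). *Stat5b* was 1.50-fold higher at Veh (log2 0.59, SE 0.0518, edgeR adjusted p = 0.000119) and 1.26-fold at CC (log2 0.33, SE 0.0518, adjusted p = 0.00257). Of the 50-base stretches in *Stat5a* transcripts, 8.21% also occur in *Stat5b* transcripts, so reads from those parts could be assigned to either gene, and the split between the paralogs is uncertain to that extent. Both genes lie beside *Stat3* on chromosome 11, at chr11:100780731-100850724 for *Stat5b* and chr11:100859351-100885169 for *Stat5a* (GRCm38).

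*Stat6* transmits IL-4 and IL-13 signals. It stood at 382 and 381 CPM with the label normal and Veh and at 379 and 379 CPM with the label steatotic and Veh. With CC it stood at 353 and 358 CPM and at 345 and 355 CPM. The 2 CC groups overlapped, and the Veh groups lay side by side without overlap. The log2 fold change between the labels was 0.04 at Veh (95% interval -0.04 to 0.11, edgeR adjusted p = 0.462) and 0.00312 at CC (-0.07 to 0.08, adjusted p = 0.960). The sign at Veh turned to -0.01 when counts were scaled by library size only. *Stat6* overlaps *Nab2* on the opposite strand.

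*Stat4*, which transmits IL-12 signals and is best known in T and NK cells, had the lowest level of the 9 genes per kilobase in normal Veh. It had 5 and 16 counts (0.0708 and 0.242 CPM) with the label normal and Veh, and 83 and 32 counts (1.33 and 0.545 CPM) with CC. In the steatotic libraries it had 46 and 72 counts (0.673 and 0.979 CPM) with Veh, and 98 and 53 counts (1.49 and 0.711 CPM) with CC. Normal Veh lay below every other library, and the other 3 groups overlapped. Replicate 1 of normal Veh lay below the level of 3 fragments of 4 counts (0.170 CPM), so the size of any fold against that group is uncertain. *Stat4* also overlaps *Gm28177* on the same strand and *Gm3940* on the opposite strand, whose reads may not have been told apart. The difference between the labels at Veh was 5.45-fold (log2 2.45, SE 0.727, edgeR adjusted p = 0.0386), and the log2 value ranged from 1.81 to 3.56 when 1 library was left out. It was 1.81 without replicate 1 of normal Veh (adjusted p = 0.164) and 3.56 without replicate 2 (adjusted p = 0.0374). Without replicate 1 or 2 of steatotic Veh the adjusted p was 0.0712 and 0.135. At CC it was 0.25 on the log2 scale (95% interval -1.23 to 1.74, adjusted p = 0.811).

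The summed level of 14 T and NK cell markers was 12.7 to 13.3 CPM with the label normal and Veh, 110 to 115 CPM with the label steatotic and Veh, 9.20 to 9.83 CPM with the label normal and CC, and 81.8 to 86.0 CPM with the label steatotic and CC. Of the 14 markers, 9 passed the filter of 0.5 CPM only through libraries labelled steatotic, so their direction was favoured by the filter and no count of calls is given. In the libraries labelled normal, *Stat4* was higher with CC than with Veh in both libraries while the marker sum was lower with CC. Their part in the *Stat4* values was not tested.

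**Figure D2:**
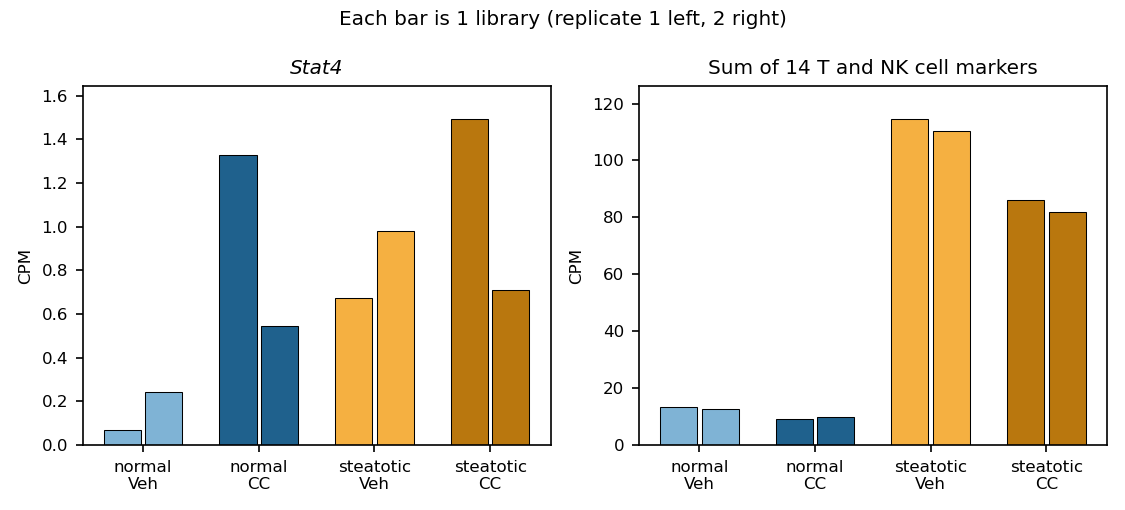
*Stat4* (left) and the sum of 14 T and NK cell markers (right) in CPM on linear axes from 0, with 1 bar per library. The marker sum is 9.20 to 13.3 CPM in the 4 normal libraries and 81.8 to 115 CPM in the 4 steatotic ones, whereas *Stat4* is low only in the 2 normal Veh libraries.

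*Socs3* restrains the IL-6 receptor subunit gp130 and its JAK kinases. It stood at 95.4 and 102 CPM with the label normal and Veh, 139.9 and 135 CPM with CC, 158 and 153 CPM with the label steatotic and Veh, and 237 and 228 CPM with CC. No groups overlapped. *Socs3* was 1.63-fold higher with the label steatotic at Veh (log2 0.70, SE 0.0481, edgeR adjusted p = 3.40e-05) and 1.72-fold at CC (log2 0.78, SE 0.0481, adjusted p = 2.18e-05). It kept its calls in all 4 comparisons of groups under every alternative that was run.

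*Cish*, whose product blocks STAT5 at cytokine receptors, had the largest log2 difference between the livers of the 9 genes at both treatments, although at Veh the wide interval of *Stat4* covered it. It stood at 0.595 and 0.453 CPM (42 and 30 counts) with the label normal and Veh, and at 0.673 and 0.989 CPM with CC. The steatotic libraries stood at 2.82 and 3.03 CPM (193 and 223 counts) with Veh, and at 3.95 and 3.48 CPM with CC. All 4 steatotic libraries lay above all 4 normal ones. *Cish* was 5.74-fold higher at Veh (log2 2.52, SE 0.268, edgeR adjusted p = 0.000319) and 4.55-fold at CC (log2 2.18, SE 0.261, adjusted p = 0.000684). Annotated transcripts on the opposite strand, *Gm17040* and *Gm17041*, overlap *Cish*, and reads from them could not be told apart if counting ignored strand.

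*Socs1*, which inhibits JAK kinases directly and limits interferon signals, stood at 6.05 and 5.06 CPM with the label normal and Veh and 4.31 and 5.76 CPM with CC. The steatotic libraries stood at 8.02 and 7.56 CPM with Veh and 10.3 and 11.2 CPM with CC. The normal groups overlapped, steatotic Veh lay above both, and steatotic CC above that. At Veh the difference between the labels was 1.45-fold (log2 0.53, SE 0.167, edgeR adjusted p = 0.0467). That call was lost when any 1 of 6 libraries was left out, those of normal Veh, steatotic Veh and steatotic CC, with adjusted p from 0.0636 to 0.203, and was 0.0617 with scaling by library size only. At CC the difference was 2.17-fold (log2 1.12, SE 0.169, adjusted p = 0.00219).

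**Figure D3:**
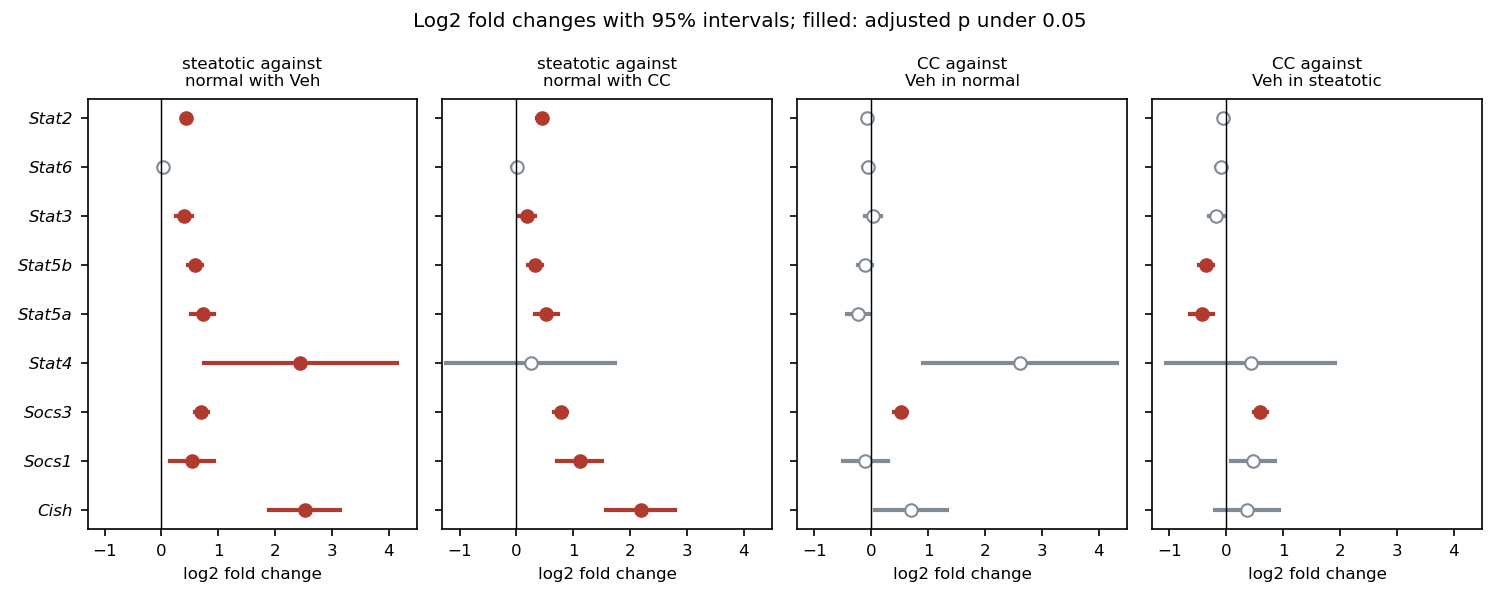
Log2 fold changes (horizontal axis) of the 9 genes with 95% intervals from edgeR, 1 panel per comparison, filled red where the adjusted p is below 0.05. In the steatotic against normal panels 8 and 7 of the 9 genes are filled to the right of 0, and in the CC panels *Socs3* is filled to the right in both.

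Next, cells with CC were compared with cells with Veh of the same label. With the label normal, CC raised 1 of the 9, *Socs3*, and lowered 0, against 6.27% of all genes tested called higher and 5.54% lower (953 and 842 genes, or 809 and 1110 with scaling by library size only). These counts over all genes also rest on single libraries, at 562 and 452 without replicate 1 of normal CC, 583 and 507 without replicate 2, and 605 and 466 without replicate 1 of normal Veh. In the steatotic libraries CC raised 1, again *Socs3*, and lowered 2, *Stat5a* and *Stat5b*, against 12.0% higher and 10.9% lower. Those shares over all genes were also smaller when any 1 library was left out. The medians over the 9 genes were -0.07 and -0.05, and over all genes tested -0.000588 and 0.

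*Socs3* rose 1.43-fold with the label normal (log2 0.52, SE 0.0481, edgeR adjusted p = 0.000545) and 1.51-fold with the label steatotic (log2 0.60, SE 0.0479, adjusted p = 0.000102). The 2 responses differed by 0.08 on the log2 scale, with a 95% interval of -0.08 to 0.24. *Stat5a* fell 1.35-fold with the label steatotic (log2 -0.43, SE 0.0862, edgeR adjusted p = 0.00968). Without replicate 1 of steatotic Veh its adjusted p was 0.0612, and without replicate 2 of steatotic CC 0.0588. *Stat5b* fell 1.28-fold (log2 -0.36, SE 0.0517, edgeR adjusted p = 0.00191), and it kept this call under every alternative. With the label normal, the log2 fold changes with CC were -0.23 for *Stat5a* (adjusted p = 0.147) and -0.11 for *Stat5b* (adjusted p = 0.253), with no overlap between the 2 groups of libraries for either gene. Beside these values, CC lowered 9 of 10 macrophage markers and raised 0 with the label normal, against 5.54% and 6.27% of all genes tested. With the label steatotic it lowered 8 of 10 and raised 1, against 10.9% and 12.0%. The part of these markers was not tested.

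The other genes did not pass the threshold with CC. *Socs1* gave log2 -0.11 with the label normal (edgeR adjusted p = 0.768) and 0.48 with the label steatotic (adjusted p = 0.0812). *Cish* gave 0.70 (adjusted p = 0.163) and 0.36 (adjusted p = 0.360). *Stat3* gave 0.03 (adjusted p = 0.807) and -0.17 (adjusted p = 0.0725), and *Stat6* gave -0.07 (adjusted p = 0.264) and -0.10 (adjusted p = 0.0703). *Stat4* gave 2.62 with the label normal (95% interval 0.92 to 4.32, edgeR adjusted p = 0.0610, DESeq2 adjusted p = 0.00791) and 0.43 with the label steatotic (adjusted p = 0.701). With the label steatotic, *Socs1* passed without either normal CC library (adjusted p = 0.0484 and 0.0496) and *Stat3* without replicate 1 of steatotic Veh (adjusted p = 0.0156). The *Stat4* value with the label normal depends on the test, at 5 to 83 counts per library.

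No member passed the test of the difference between the 2 CC responses, in which edgeR called 1.95% of all genes tested higher and 1.27% lower with the label steatotic (297 and 193 genes, and 195 and 101 without replicate 2 of steatotic Veh, 195 and 112 or 206 and 108 without replicate 1 or 2 of normal CC). At an unadjusted p below 0.05 there were 3 of the 9, against 14.2% of all genes tested, and DESeq2 also called 0. The 3 were *Stat5b* at -0.25 (95% interval -0.42 to -0.08, edgeR adjusted p = 0.141), *Stat3* at -0.20 (-0.39 to -0.01, adjusted p = 0.319) and *Socs1* at 0.58 (0.03 to 1.13, adjusted p = 0.322). The falls of *Stat5a* and *Stat5b* with the label steatotic are therefore not shown to differ from the values with the label normal.

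Over the 8 libraries, the tested genes of at least 5 CPM whose log2 CPM was most like that of each member were named by Pearson's r, as a description of libraries in 4 groups. They were *Plac8* for *Stat2* (0.999), *Ifi208* and *Irgm2* for *Stat5a* (0.998 and 0.996), and *Sbno2* and *Fyn* for *Stat5b* (0.996 and 0.993). For *Socs3* they were *Bcl2a1d* and *Sema4d* (0.998 and 0.997), for *Socs1* *Nmi* and *Apobr* (0.993 and 0.986), and for *Cish* *Bak1* and *Clip2* (both 0.993). For *Stat6* they were *Gm26674* and *Slc12a9* (both 0.992), for *Stat3* *Inpp5b* and *Eif3h* (0.978 and 0.966), and for *Stat4* *Kansl1* and *Trim26* (0.935 and 0.933).

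The rest of the pathway was taken from lists of 107 genes, of which 99 were tested. Of these, 9 reached the filter only in libraries labelled steatotic, 5 of them called higher at Veh, and 1 only in libraries labelled normal. At Veh, 42 of the 99 were higher with the label steatotic and 10 lower, against 16.4% and 14.3% of all genes tested, with a median log2 fold change of 0.31. At CC 48 were higher and 8 lower, against 15.9% and 12.9%, with a median of 0.30. CC raised 12 and lowered 11 with the label normal (median 0.03), against 6.27% and 5.54% of all genes tested. It raised 26 and lowered 21 with the label steatotic (median 0.04), against 12.0% and 10.9%. For the 23 genes called with the label normal, the count was 11 without replicate 1 of normal CC and 12 without replicate 1 of normal Veh.

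**Figure D4:**
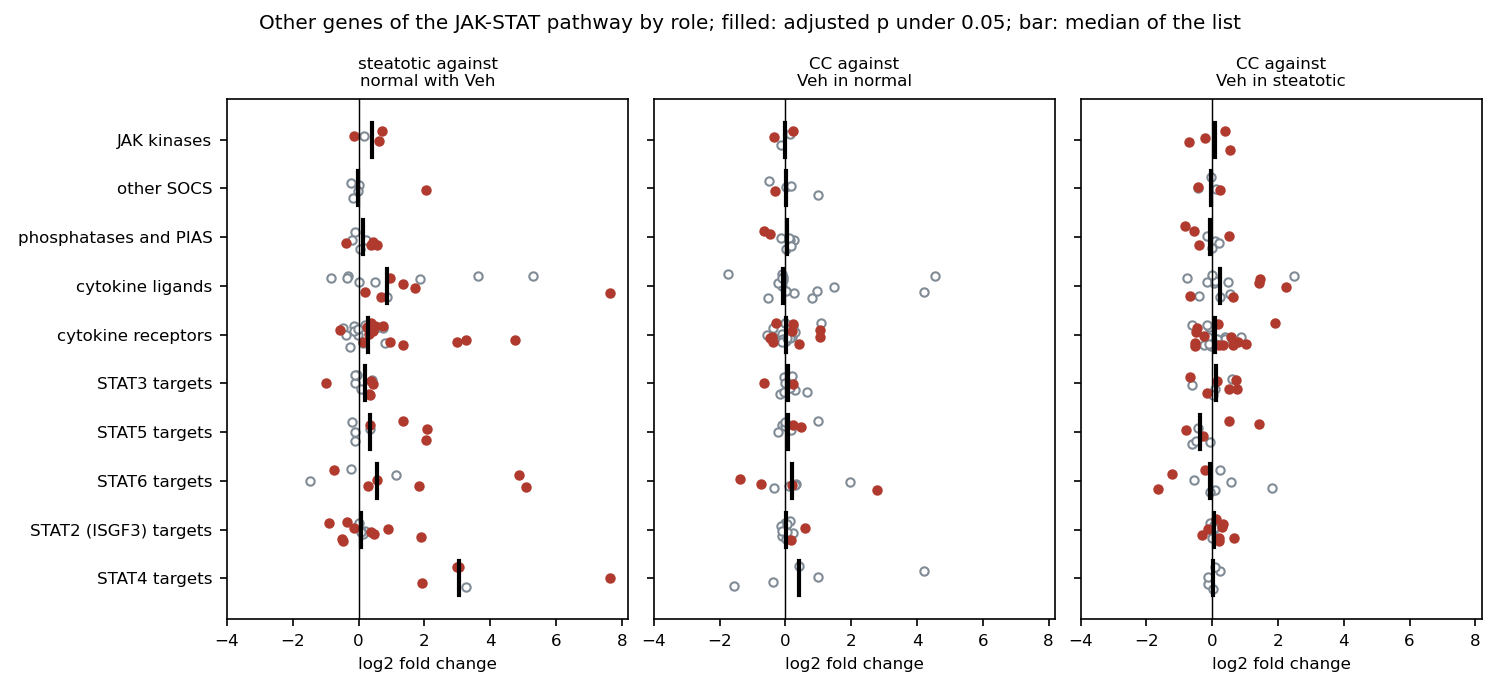
Log2 fold changes (horizontal axis) of other pathway genes tested, grouped by role, in 3 comparisons. A gene of 2 lists is drawn in both. Each point is 1 gene, filled red at an edgeR adjusted p below 0.05, and black bars are list medians. In the left panel 12 of the 26 receptors and 6 of the 15 ligands are filled to the right of 0. Among those filled, 2 receptors and 1 ligand passed the filter only through libraries labelled steatotic.

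The 4 JAK kinases moved in different directions. At Veh, *Jak2* (log2 0.63, edgeR adjusted p = 8.68e-05) and *Jak3* (0.72, adjusted p = 0.000667) were higher with the label steatotic, *Jak1* was lower (-0.15, adjusted p = 0.0205) and *Tyk2* was not called (0.16, adjusted p = 0.0892). With CC, *Jak1* rose with both labels (0.22 and 0.39, adjusted p = 0.0106 and 0.000337) and *Jak3* fell with both (-0.35 and -0.69, adjusted p = 0.0430 and 0.00113). *Jak2*, the kinase of the GM-CSF receptor, rose with the label steatotic (0.55, adjusted p = 0.000227) and gave 0.14 with the label normal (adjusted p = 0.142). *Tyk2* fell with the label steatotic (-0.21, adjusted p = 0.0405) and gave -0.14 with the label normal (adjusted p = 0.198).

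Of the 5 other SOCS genes, *Socs2* was higher with the label steatotic at Veh (log2 2.04, SE 0.541, edgeR adjusted p = 0.0324), and *Socs4*, *Socs5*, *Socs6* and *Socs7* were not called, with values from -0.23 to 0.02. *Socs5* fell with CC with both labels (-0.33 and -0.42, adjusted p = 0.0488 and 0.0105), and *Socs4* rose with the label steatotic (0.24, adjusted p = 0.0189). With the label normal, the DESeq2 adjusted p of *Socs5* was 0.0643, so that call was lost. Of the 8 phosphatases and PIAS proteins, 3 were higher and 1 lower at Veh (median 0.13), against 16.4% and 14.3% of all genes tested. Those called ranged from *Pias4* at -0.37 (edgeR adjusted p = 0.00256) to *Ptpn1* at 0.54 (adjusted p = 0.000127). *Ptpn1*, a phosphatase of JAK kinases, fell with CC with both labels (-0.46 and -0.82, adjusted p = 0.000937 and 2.49e-05), as did *Ptpn6* (-0.64 and -0.56, adjusted p = 0.0122 and 0.0104).

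Of the 15 ligands tested, 6 were higher with the label steatotic at Veh and 0 lower, against 16.4% and 14.3% of all genes tested. Of the 15, 4 (*Csf2*, *Ifnb1*, *Ifng* and *Il12a*) passed the filter only through libraries labelled steatotic, and 1 only through those labelled normal. The direction of the 4, of which *Ifng* is among the 6, was favoured by the filter. *Ifng*, an interferon made by T and NK cells, had 0 counts in both normal Veh libraries and 12 and 41 counts in the steatotic Veh libraries, where the T and NK markers summed to 110 to 115 CPM. *Il10*, a STAT3 ligand, was higher by log2 1.71 (edgeR adjusted p = 7.93e-05), *Osm* by 1.35 (adjusted p = 0.0281) and *Ebi3* by 0.20 (adjusted p = 0.0293). By DESeq2 the adjusted p of *Ebi3* was 0.0540, past the threshold. CC changed 0 of the 15 with the label normal, where 6.27% of all genes tested were higher and 5.54% lower. With the label steatotic it raised 4 and lowered 1, against 12.0% and 10.9%. Among them, *Il6*, also a STAT3 ligand, rose by 2.24 (adjusted p = 0.00276), *Osm* by 1.42 (adjusted p = 0.0241) and *Il10* changed by -0.68 (adjusted p = 0.00894). Neither *Il6* nor *Osm* passed the test of the difference between the responses (adjusted p = 0.215 and 0.223).

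Of the 26 receptors, 12 were higher and 1 lower with the label steatotic at Veh (median 0.28), against 16.4% and 14.3% of all genes tested, with *Il11ra1* lowest at -0.56 (edgeR adjusted p = 0.00709). Among the 12, *Il12rb1* and *Il12rb2* passed the filter of 0.5 CPM only through libraries labelled steatotic. Their direction, and so the count, was favoured by the filter. *Il12rb1*, a subunit of the receptor that activates STAT4, had 4 counts in each normal Veh library and 114 and 108 in the steatotic Veh libraries, too few in the former for a fold change. With CC, 5 rose and 4 fell with the label normal, against 6.27% and 5.54%, and 8 rose and 5 fell with the label steatotic, against 12.0% and 10.9%. *Csf2rb*, the shared receptor chain that activates STAT5 for GM-CSF, rose with the label normal (1.06, adjusted p = 0.000695) and with the label steatotic (1.03, adjusted p = 0.000316). *Il7r* rose by 1.05 (adjusted p = 9.10e-05) and 1.90 (adjusted p = 2.87e-06). *Ifngr1* fell with the label normal (-0.47, adjusted p = 0.0285) and *Il6ra* with the label steatotic (-0.52, adjusted p = 0.000105).

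Lists of target genes were read beside their factors, at Veh first, where 16.4% of all genes tested were higher with the label steatotic and 14.3% lower. Of 14 STAT2 targets, 4 were higher and 5 lower with the label steatotic (median 0.07), from *Ifit3* at -0.90 (edgeR adjusted p = 1.28e-06) to *Ifi44* at 1.90 (adjusted p = 1.39e-06), while *Stat2* itself was higher. Of 10 STAT3 targets, 4 were higher and 1 lower (median 0.19), from *Myc* at -0.99 (adjusted p = 0.00781) to *Nfil3* at 0.43 (adjusted p = 0.0215). Of 8 STAT5 targets, 4 were higher and 0 lower (median 0.35), from *Bcl6* at 0.36 (adjusted p = 0.000568) to *Ccnd2* at 2.07 (adjusted p = 3.80e-06). Of 9 STAT6 targets, 5 were higher and 1 lower (median 0.54), with *Irf4* lowest at -0.76 (adjusted p = 0.0297), while *Stat6* was not called. *Chil3*, 1 of the 5, passed the filter only through libraries labelled steatotic, so its direction was favoured by the filter. Of 5 STAT4 targets, 4 passed the filter only through libraries labelled steatotic, so no count or median is given for them. The other, *Il18rap*, was higher by 1.92 (adjusted p = 0.0400), at 12 to 28 counts in normal Veh and 68 to 83 in steatotic Veh, where the T and NK cell markers summed to 110 to 115 CPM. Their part in this value was not tested. Many genes of these lists answer to other factors as well.

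The same lists were read with CC, which raised 6.27% and lowered 5.54% of all genes tested with the label normal, and raised 12.0% and lowered 10.9% with the label steatotic. The STAT5 targets gave 2 higher and 0 lower with the label normal (*Pim1* 0.24, edgeR adjusted p = 0.00917, and *Ccnd2* 0.48, adjusted p = 0.0122). With the label steatotic they gave 2 higher and 2 lower (median -0.36), from *Ccnd1* at -0.80 (adjusted p = 0.00109) to *Osm*. The STAT3 targets gave 1 higher and 1 lower with the label normal and 4 higher and 2 lower with the label steatotic, with *Cebpd* lowest in both (-0.65 and -0.67, adjusted p = 0.0269 and 0.0131) and *Nfil3* highest in the latter (0.76, adjusted p = 0.00207). The STAT6 targets gave 2 higher and 2 lower with the label normal, from *Clec10a* at -1.38 (adjusted p = 0.0203) to *Ccl22* at 2.77 (adjusted p = 0.0283). With the label steatotic they gave 0 higher and 3 lower, from *Mrc1*, the mannose receptor, at -1.64 (adjusted p = 1.58e-06) to *Tgm2* at -0.21 (adjusted p = 0.00373). The STAT2 targets gave 2 higher and 0 lower, then 6 higher and 2 lower, with *Rsad2* highest in both (0.59 and 0.65, adjusted p = 0.000109 and 2.21e-05), *Isg15* at 0.17 (adjusted p = 0.0340) with the label normal and *Ifi44* at -0.32 (adjusted p = 0.00873) with the label steatotic. *Il18rap* was not called in either.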

How the data were processed

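Poly(A) RNA of hepatic macrophages was sequenced as 150-base paired reads. Per the labels and methods, the authors used fastp, HISAT2 (mm10) and StringTie, whose versions and strand setting are not given in the sources used here, and deposited 1 table of estimated counts (expected counts), whole numbers that are not normalized. Of values from 1 to 20, 35.02% to 36.47% were multiples of 4, against 23.95% to 27.02% of larger values, so 1 fragment may stand for several counts. A value of 3 counts is 0.0403 to 0.0511 CPM, and 3 fragments of 4 counts each are 0.161 to 0.205 CPM, counting error only.

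Counts were used as deposited, and CPM were counts per 1000000 of the library total. Genes with 0.5 CPM in at least 1 library were tested with edgeR 4.0.16 (R 4.3.3; TMM, robust glmQLFit, glmQLFTest, 1 model with 4 group means) and adjusted by Benjamini-Hochberg. SE is the log2 fold change divided by the root of F. DESeq2 1.42.0 and 1 library left out at a time were among the alternatives. Genes were matched to GENCODE on GRCm38, and lengths are those of merged exons. Named were every member and every other STAT, JAK and SOCS gene, and of each other list the called genes with the highest and lowest fold change at Veh between the labels and with CC in each label. Genes that differed between the CC responses, and genes named for their link to a member (*Il10*, *Osm*, *Il12rb1*, *Csf2rb*, *Ptpn6*), were added after their values were seen. Some genes that this rule names are not reported here. The members and lists were chosen with earlier results of these data known.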

Additional observations from a re-analysis of the deposited data

Results flagged for a closer look

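In 7 of the 99 other pathway genes, the CC response differed between the labels by the edgeR test of the difference itself (Benjamini-Hochberg adjusted p below 0.05), 3 of them higher and 4 lower with the label steatotic, against 1.95% and 1.27% of all genes tested. Each value is the log2 response with the label steatotic minus that with the label normal, over 2 libraries a group. The response was higher with the label steatotic for *Jak2* (0.41, adjusted p = 0.0276), *Il7r* (0.85, adjusted p = 0.00415) and *Csf2rb2* (0.34, adjusted p = 0.00870). It was lower for *Mrc1* (-0.89, adjusted p = 0.00121), *Tgm2* (-0.42, adjusted p = 0.00576), *Il4ra*, the IL-4 receptor chain upstream of STAT6 (-0.63, adjusted p = 0.0107), and *Ptpn1* (-0.35, adjusted p = 0.0406). *Il4ra* gave log2 0.11 with CC in the normal libraries (adjusted p = 0.347) and -0.52 in the steatotic ones (adjusted p = 0.000733), while *Tgm2* rose in the former (0.21, adjusted p = 0.00847) and fell in the latter (-0.21, adjusted p = 0.00373). *Csf2rb2* and *Csf2rb* are close paralogs, so the split of reads between them is uncertain.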

How the results depend on the processing

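The number of the 9 genes called with CC in the label normal was 1, and 2 with DESeq2, with no filter on low counts and at an adjusted p below 0.1, with *Stat4* as the second. In the label steatotic it was 3, and 6 at an adjusted p below 0.1. Of the other pathway genes, 23 were called with CC in the label normal (11 to 21 with 1 library left out). The difference between the CC responses was called in 7, and in 12 with DESeq2, 12 with no filter and 13 at an adjusted p below 0.1. With 1 library left out, 6 to 8 of the 9 genes were called at Veh, 6 to 7 at CC, and 2 to 4 with CC in the label steatotic.

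Signs turned only for values that were not called. Scaling by library size alone gave -0.00997 for *Stat6* at Veh, -0.0228 for *Stat6* at CC and -0.00590 for *Stat3* with CC in the label normal. *Stat6* at CC was also -0.00267 with 0.5 CPM asked of 2 libraries and -0.00595 with the 4 libraries of the comparison alone, and -0.0162 to 0.0221 with 1 library left out. Leaving out 1 library also turned *Socs1* with CC in the label normal (-0.330 to 0.0894), *Stat4* with CC in the label steatotic (-0.201 to 0.872), *Stat4* at CC (-0.376 to 1.04) and *Stat2* in the difference (-0.0101 to 0.0323). The cause was not tested.

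The labels do not say that libraries with the same number share animals, and the correlation of their deviations was -0.00224 to 0.164 in the pairs of groups compared. With the replicate block, 6 of the 9 genes were called at Veh (*Stat4* adjusted p = 0.0627, *Socs1* 0.0682), and the other counts of the 9 genes were unchanged at 1, 3, 0 and 7. Scaling by library size alone moved the split at Veh over all genes from 2489 higher and 2176 lower to 2210 and 2685. With 2 libraries a group and 5 to 98 counts, depth limits statements on *Stat4*.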
